A study of Mus musculus with 415 samples.

Results

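The cells described here were chosen because their chromatin was open at 18 marker regions in 8 intervals of the genome. One of these intervals lies, by its given name, upstream of the gene Lhx1. A cell was chosen when at least 2 of the 18 regions were open and when its share of open marker regions was at least 0.8 times its share of all 23180 regions. By this rule 130 cells were members, which is 31.3% of all cells (exact 95% interval 26.9% to 36.03%). All remaining cells served as the comparison. The series has 1 group. Mouse embryonic stem cells of the line R1 were grown as embryoid bodies by the hanging drop method (48 hours) and treated with retinoic acid for 4 days, labelled as 0.5 mM. Each sample is 1 cell, captured and cut with the Tn5 transposase on a Fluidigm C1 chip. There was no untreated group, and the labels name no separate cultures or animals. The series therefore counts as 1 sample, and no p-value was computed from cells. Intervals cover the counting of cells only.

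Lhx1 encodes a transcription factor with LIM domains and a homeodomain. It is known for its part in the head organizer of the early embryo, in the intermediate mesoderm that forms the kidney, and in particular classes of neurons. Retinoic acid, a derivative of vitamin A, binds nuclear receptors and drives embryonic stem cells out of the pluripotent state, often towards neural or endodermal fates. An open region far from a promoter can be an enhancer, a stretch of DNA where transcription factors bind and act on a gene at a distance, and such regions differ more between cell types than promoters do.

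The name of the Lhx1 interval was not checked, because the regions are on the genome build mm9 and carry no gene names, while the gene table used here is on GRCm38. That table gives only the gene order: Lhx1 lies on the reverse strand, with Aatf as its nearest protein-coding neighbour downstream and Mrm1 upstream. No level of Lhx1 or of any other marker gene was measured, so the chosen cells are called member cells and are given no cell type.

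The marker regions differed in how often they were open. The widest interval, chr1:154011910-154096869, holds 3 regions and had an open region in 94 of 130 members (72.3%, interval 63.8% to 79.8%) and in 15.4% of the other cells. At chr16:21865330-21870717, also with 3 regions, these shares were 69.2% and 16.1%. On chromosome 3, the 4 regions of chr3:16746942-16773005 gave 64.6% and 26.7%. The interval named for Lhx1, chr11:84382922-84399662, was open in 78 members (60%, interval 51.05% to 68.5%) and in 52 other cells (18.2%). These shares chose the members and are a description only.

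The other 4 intervals are single regions, open in 20.8% to 26.2% of members. They are chr17:27538216-27538471, chr16:5523446-5523926, chr1:130348829-130349056 and chr15:94912088-94912587. In the other cells they were open in 1.05% to 3.86%. Within the Lhx1 interval the 4 regions were open in 27.7%, 19.2%, 23.8% and 25.4% of members, from the lowest coordinate to the highest, with intervals that overlap. No marker region was open in more than 48.5% of members. The rule asks for at least 2 open regions, so each member holds a combination of them by definition.

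Members held a median of 5 open marker regions, from 2 to 12, against a median of 1, from 0 to 6, in the other cells. In 46 members 2 or 3 marker regions were open, and in 47 members at least 6. Open regions came from a median of 3.5 of the 8 intervals, and in 7 members from 1 interval alone. Of the other cells 52.98% had at least 1 open marker region. Among these, 74 cells had at least 2 but fell short of the ratio, and 12 reached the ratio with a single open region.

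**Figure D1:**
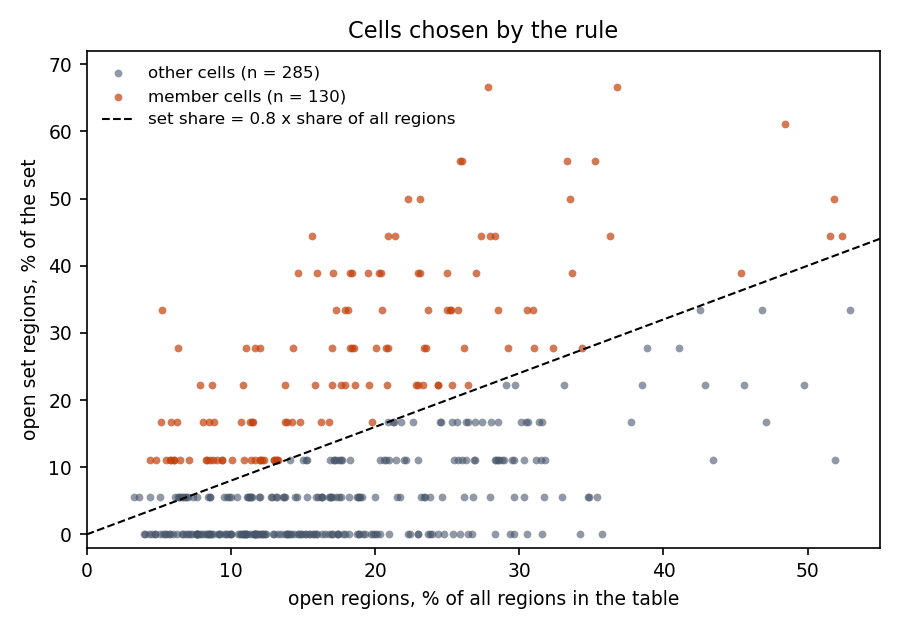
Each point is 1 cell, with its share of all regions that were open on the horizontal axis and its share of the 18 marker regions on the vertical axis, both in percent. The 130 member cells (orange) lie on or above the dashed line at a ratio of 0.8 and hold at least 2 open marker regions, and the other cells are grey.

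The threshold cuts a continuous range. The 3 members just inside it had ratios of 0.808, 0.838 and 0.840 with 5, 2 and 2 open marker regions. The 3 cells just outside it had 0.784, 0.789 and 0.798 with 6, 2 and 3. Members were slightly deeper than the other cells. They had a median of 4154.5 open regions (quartiles 2640.25 and 5755.75, range 1015 to 12139) and the others 3787 (quartiles 2513 and 5684, range 756 to 12267). In fragments, taken as signal divided by the bases of a read pair, the medians were 4852 and 4456. A deeper cell is open at more regions of every kind. The depth-scaled ratios and 2-fold counts that follow therefore use observed over expected shares. The expected share comes from the depth of the cells and from the region's frequency over all cells. Shares of open cells given in percent are as observed, not scaled for depth.

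Cells open at some of the 8 intervals were more often open at the rest. This was read by choosing cells with 7 intervals and examining the interval left out. The choice without the Lhx1 interval kept 87.7% of the members. The Lhx1 interval was open in 63 of the cells so chosen (49.2%, interval 40.3% to 58.2%) and in 67 of all others (23.3%, 18.6% to 28.7%), 2.14 times as often after scaling for depth. For the remaining intervals this ratio ran from 1.95 on chromosome 3 to 5.95 on chromosome 15. In all 8 the exact intervals of the chosen and the other cells did not overlap. The 8 intervals had been picked with earlier results on these cells known, so this is no independent evidence that they belong together.

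**Figure D2:**
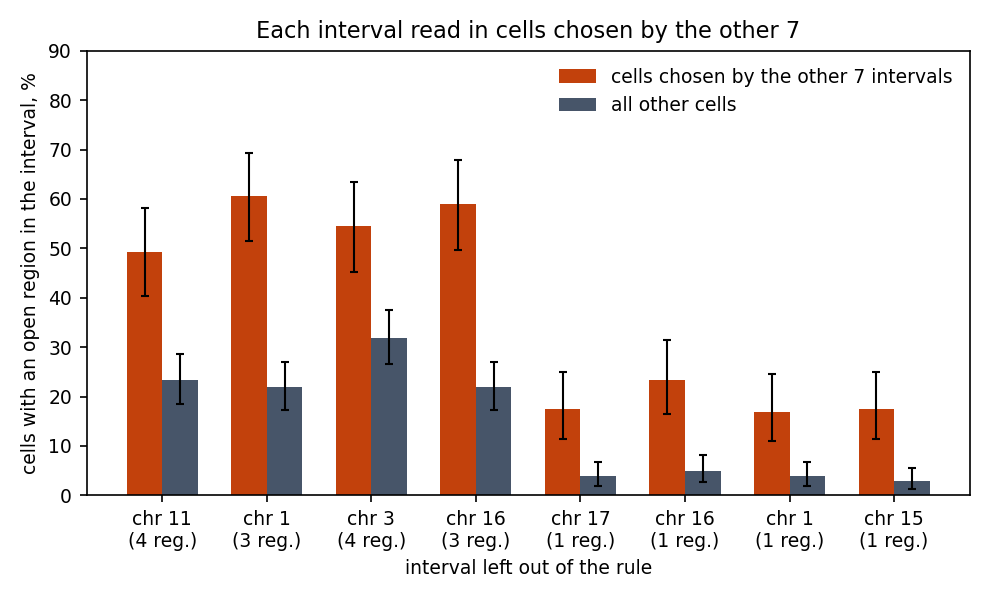
Bars give the percentage of cells with at least 1 open region in the interval named below, in cells chosen by the other 7 intervals (orange) and in all remaining cells (grey), with the number of regions in the interval in brackets. Lines are exact 95% intervals, and the orange bar is higher at each of the 8 intervals, from 49.2% against 23.3% at the Lhx1 interval on chromosome 11 to 17.4% against 2.83% on chromosome 15.

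In the surroundings of the Lhx1 interval 1 region was at least 2-fold higher in members with exact intervals that do not overlap. Within 250 kb of the 8 intervals lay 50 regions outside the set, of which 7 were at least 2-fold higher in members and 3 at least 2-fold lower. With that further demand on the depth-scaled shares, called separate intervals from here on, 4 were higher and 3 lower. Over all 7129 regions outside the set on the same chromosomes, 6.31% were higher and 10.2% lower, or 4.18% and 5.05% with separate intervals. Around the Lhx1 interval 3 of 13 regions were at least 2-fold higher and 0 lower, with a median ratio of 1.40, and 1 of the 3 had separate intervals. That region, chr11:84486340-84486693, lies 86.7 kb beyond the interval. It was open in 25 members (19.2%, interval 12.8% to 27.1%) and in 12 other cells (4.21%), a depth-scaled ratio of 4.34 (counting interval 2.10 to 9.49). The other two, chr11:84466919-84467453 and chr11:84542570-84542843, had ratios of 2.5 (1.19 to 5.33) and 2.08 (0.9752 to 4.45), and their shares in members and other cells had overlapping intervals. Around chr1:130348829-130349056, 0 of 9 regions were higher and 2 lower. All these regions share a chromosome with the rule.

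Chromosomes that hold no marker region also differed between member and other cells. On these 14 chromosomes 16033 regions were compared. At least 2-fold higher in members were 903 regions (5.63%), and at least 2-fold lower were 1595 (9.95%). The median ratio over all 16033 was 0.986. With separate intervals, 589 regions (3.67%) were higher and 720 (4.49%) lower. The counts at 2-fold became 2161 and 3457 when more than 1 read pair was required and 1684 and 2639 with cells thinned to 1500 open regions. In the cells of lower title numbers alone 1473 regions were higher. All cells count as 1 sample, so this is not a test across replicates.

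The regions that differed were narrower, and open in somewhat fewer cells, than the median region. Those higher with separate intervals had a median width of 614 bp and were open in a median of 11.1% of all cells, 20.8% of members and 6.67% of the other cells. Those lower had 575 bp and were open in 10.4%, 3.08% and 13.5%. Over all 16033 regions the median width was 762 bp, and the medians were 14.5%, 15.4% and 14.4%. By contrast, the 1.91% of regions open in at least 50% of all cells had ratios from 0.782 to 1.24, with a median of 0.9997, and 0 of them reached even 1.5-fold. A 2-fold higher share is hardly possible for a region that is already common in the comparison cells, which limits that reading.

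Both kinds of region were spread over the 14 chromosomes. On the autosomes the share of regions at least 2-fold higher ran from 4.38% on chromosome 13 to 7.47% on chromosome 5, and the share lower from 7.36% on chromosome 7 to 12.2% on chromosome 13. Chromosome X had the fewest of both, with 7 of 499 regions higher (1.40%) and 26 lower (5.21%). Whole chromosomes hardly differed. The median over members of open to expected regions ran from 0.956 on chromosome 14 to 1.02 on chromosome 5, and over the other cells from 0.9752 on chromosome X to 1.01 on chromosome 19.

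Members fell mainly into 1 of 3 clusters of cells made without any marker region, although this depended on how the clusters were made. When cells were clustered on the 14 chromosomes outside the rule, cluster 1 held 89.2% of the members (interval 82.6% to 93.99%) and 48.9% of all cells. With the first component of the cell profiles kept, which is left out here, the share fell to 53.1% of members, in a cluster with 38.8% of all cells. In the clusters without that component, members made up 57.1% of cluster 1 (50.03% to 64.05%), 7.69% of cluster 2 and 5.56% of cluster 3. Clustered instead on the 6 chromosomes of the marker regions, with those 18 regions taken out, cluster 1 again held 89.2% of the members, and 86.9% were in cluster 1 both times. Clusters of the first kind were numbered by the cluster of the second kind that they overlap most. With that numbering, 92.3% of all cells had the same cluster in both. The adjusted Rand index, a measure of agreement corrected for chance, was 0.777. The clusters carry no cell type, since the table names no genes.

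Set against the other cells of each cluster, members differed at the fewest regions from those of cluster 1 and at the most from those of cluster 3. Since 89.2% of members were in cluster 1 themselves, the fewest differences there are no separate finding. Clusters from the marker chromosomes were used for this, so that the 14 other chromosomes could be read. Against the 98 other cells of cluster 3, 8.48% of the 16033 regions were at least 2-fold higher in members and 8.43% lower, with separate intervals. Against those of cluster 2 the values were 2.51% and 4.37%. Against the 85 of cluster 1 they were 0.262% and 0.137%, or 42 and 22 regions. The other cells of cluster 1 were the shallowest, with a median of 2703 open regions against 4899 in cluster 2 and 3699.5 in cluster 3. Members within cluster 1 were much deeper, with a median of 4215.5. The part of depth in the low count was not tested.

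**Figure D3:**
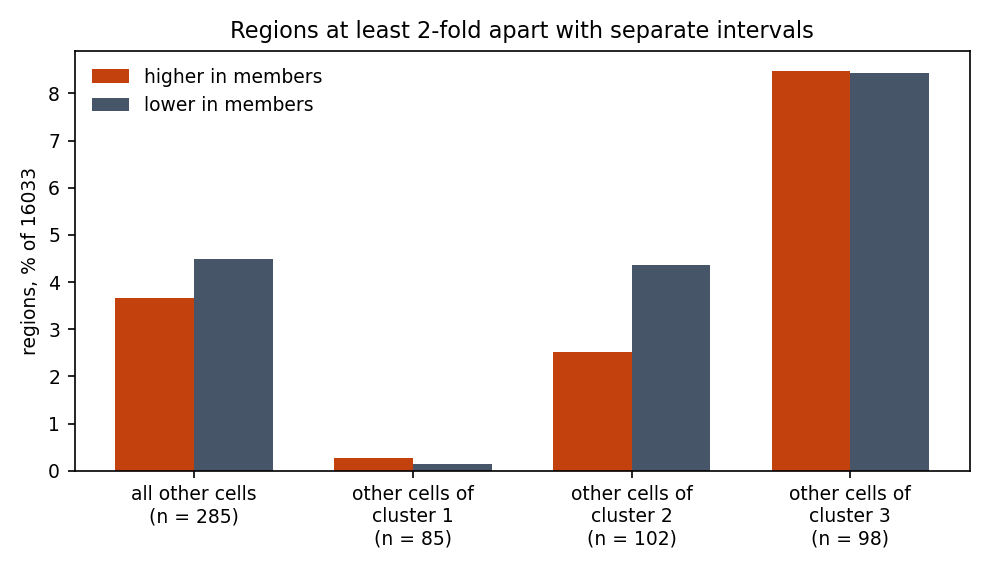
Bars give the percentage of 16033 regions on the 14 chromosomes outside the rule that were at least 2-fold higher (orange) or lower (grey) in the 130 members, after scaling for depth and with separate exact intervals. The comparison with all other cells gave 3.67% and 4.49%, that with the other cells of cluster 1 gave 0.262% and 0.137%, and that with cluster 3 gave 8.48% and 8.43%.

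Of the regions outside the rule, the 10 with the highest ratio were each open in 17.7% to 24.6% of members and rarely elsewhere. The first, chr5:75221635-75222152, was open in 29 members (22.3%, interval 15.5% to 30.4%) and in 8 other cells (2.81%), a depth-scaled ratio of 7.56 (counting interval 3.37 to 19.1). Of those 8 cells 4 were in cluster 1, 3 in cluster 2 and 1 in cluster 3. The next, chr6:142797886-142798183, was open in 20.8% of members and 2.81% of the others, a ratio of 7.03 (3.11 to 17.9). At chr9:71860699-71861082, 27 members and 9 other cells were open, with a ratio of 6.25.

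The counting intervals of these and the following regions overlap, so the order among the 10 is not established. Chromosome 2 had a pair, chr2:180836474-180837447 with 32 members and 11 other cells (24.6% against 3.86%) and chr2:179156376-179157086 with 23 and 8 (17.7% against 2.81%). Chromosome 8 also had a pair, chr8:35251855-35252442 (22.3% against 3.86%) and chr8:64187491-64188182 (20% against 3.51%). The last 3 were chr10:126947571-126947815, chr7:146917038-146917693 and chr13:8409661-8410164, with ratios of 5.84, 5.79 and 5.39. Of these 10 regions none was open in over 7.06% of the other cells of any cluster. Those shares are not scaled for depth, and the other cells of cluster 1 were the shallowest. Observed over expected was 0.516 to 0.958 in the other cells of cluster 1, 0.0915 to 0.495 in cluster 2 and 0.119 to 0.389 in cluster 3. Being picked for size among 16033, the 10 regions have ratios that lean high.

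The 10 regions with the lowest ratio were almost never open in members, and most of the cells open there belonged to cluster 3. At chr7:26294877-26295557, 0 of 130 members were open (interval up to 2.80%), and 43 other cells were (15.1%). The depth-scaled ratio was 0, with a counting interval up to 0.187. This region was open in 35 of the 98 other cells of cluster 3 (35.7%, interval 26.3% to 46.03%), in 6 in cluster 1 and in 2 in cluster 2. At chr18:41207290-41208076, 1 member (0.769%) and 54 other cells (18.9%) were open, a ratio of 0.0387 (counting interval 0.000962 to 0.225). In cluster 3, 43.9% of the other cells were open there.

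No member was open at 7 more of these regions. Both chr5:150387906-150388805 and chr8:89282813-89283359 had 37 open other cells (counting interval of the ratio up to 0.219), and both chr4:13685566-13685919 and chrX:6981451-6981926 had 35 (up to 0.232). The other 3 were chr12:46171196-46171472 with 34 (up to 0.239), chr13:75051372-75051995 with 32 (up to 0.255) and chr13:5831243-5831792 with 31 (up to 0.263). The last of the 10, chr8:113489544-113489820, was open in 1 member and 46 other cells, with a ratio of 0.0454 (counting interval 0.00112 to 0.266). Over the 10 regions, 20.4% to 43.9% of the other cells of cluster 3 were open. In clusters 2 and 1 these shares were 1.96% to 9.80% and 2.35% to 9.41%. Observed over expected was 2.59 to 3.72 in cluster 3, 0.154 to 0.968 in cluster 2 and 0.394 to 1.17 in cluster 1. Picked as the lowest among 16033, these 10 regions have ratios that lean low.

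**Figure D4:**
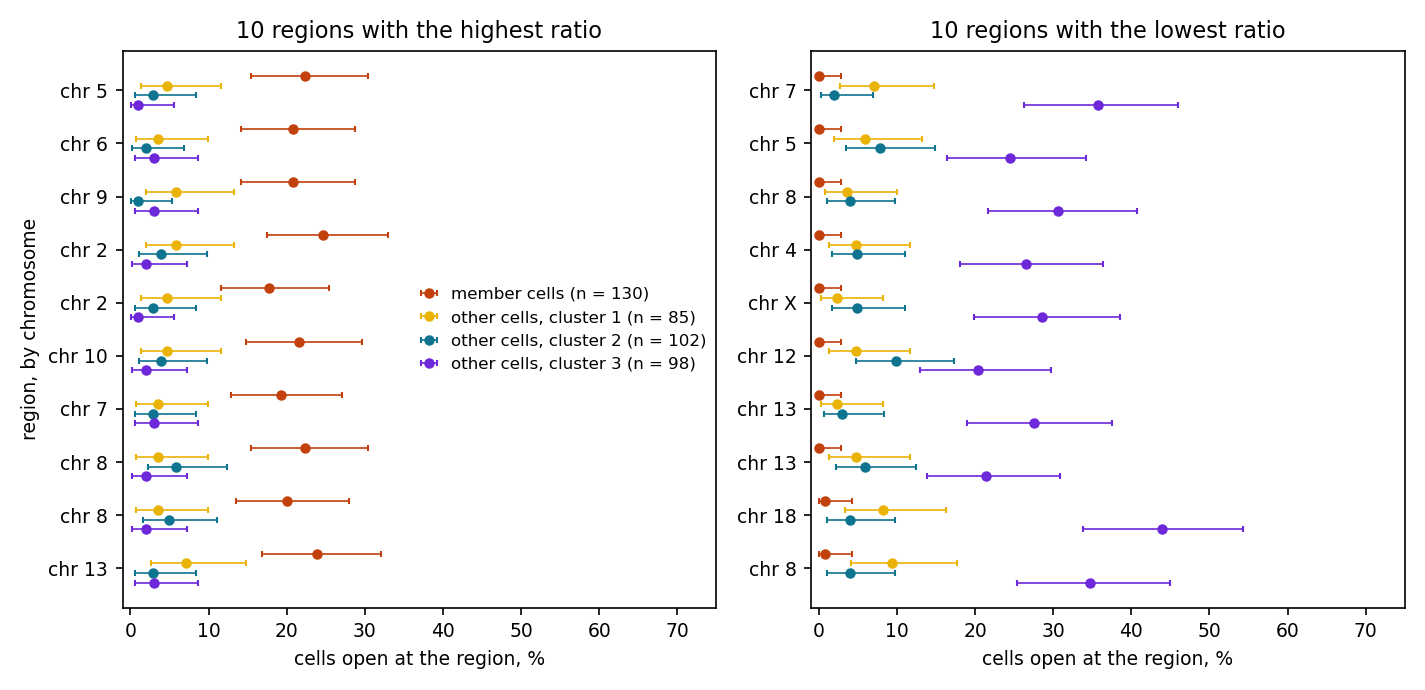
Points give the observed percentage of cells open at each region, not scaled for depth, with exact 95% intervals as lines. Regions are the 10 with the highest (left) and 10 with the lowest (right) depth-scaled ratio of members to other cells, named by chromosome. At the regions on the left members lie between 17.7% and 24.6% and the other cells of each cluster at or under 7.06%. At those on the right members are at or under 0.769%. Other cells there are at or under 9.80% in clusters 1 and 2 and at 20.4% to 43.9% in cluster 3.

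A minority of the regions that differed lay close together. Of those with separate intervals, 14.1% of the higher and 14.03% of the lower regions had another of the same direction within 50 kb. Most regions on the 14 chromosomes had some other region within that distance, whether it differed or not. The share and the chains to be found from this density alone were not computed. Closeness beyond it was therefore not tested. Chains of at least 3 such regions with separate intervals and gaps of at most 50 kb numbered 4 for the higher and 5 for the lower regions, and held 13 of the 589 and 17 of the 720. The largest chain of higher regions, chr19:41690402-41821342, had 4 of the 6 regions in its span higher, with ratios from 2.26 to 4.52. At least 1 of the 4 was open in 71 members (54.6%, interval 45.7% to 63.4%) and in 68 other cells (23.9%, 19.03% to 29.2%). The remaining 3, each of 3 higher regions, were chr2:151850624-151906588, chr5:132156255-132199103 and chr8:122931731-122974539, with median ratios of 3.55, 3.08 and 2.25.

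The largest chain of lower regions was chr2:147806544-147872519, where all 5 regions in the span were lower, with ratios from 0.125 to 0.363. At least 1 of them was open in 19 members (14.6%, interval 9.03% to 21.9%) and in 48.4% of the other cells (42.5% to 54.4%). Among the other cells the share, not scaled for depth here or below, was 25.9% in cluster 1, 44.1% in cluster 2 and 72.4% in cluster 3. A chain of 3 at chr2:84314117-84369607 was open in 7.69% of members, 15.3% of the other cells of cluster 1, 9.80% of those of cluster 2 and 63.3% of those of cluster 3. The other 3 chains of lower regions were chr10:6213465-6240826, chr12:58279989-58336466 and chr6:31546777-31587656, open in 13.1%, 10% and 9.23% of members and in 36.8%, 34.7% and 32.6% of the other cells.

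Single cells formed a range without a gap in these regions. For each cell, open regions were divided by expected ones over the 589 higher regions. The median was 1.72 in members (quartiles 1.42 and 2.25, range 0.151 to 3.28) and 0.630 in the other cells (0.311 and 0.925, range 0.0311 to 2.33). Over the 720 lower regions the medians were 0.272 and 1.01. Since the regions were chosen from this comparison, the gap between members and other cells follows from the choice. Every cell entered that comparison, so the order within members and within the other cells is a description too.

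Within members, the 58 cells with a ratio of at least 1.5 had a median of 2.11 over the higher regions (quartiles 1.71 and 2.38). The 72 with a ratio from 0.8 to 1.5 had 1.53 (1.22 and 1.89). The 58 were shallower, with a median of 3822.5 open regions against 4563.5. The marker ratio divides by a cell's own share of open regions, and the part of depth was not tested. Among the other cells, the 74 with at least 2 open marker regions had 0.777, the 77 with 1 had 0.696, and those with none had 0.352. These last 3 sets differed in depth, with medians of 6246.5, 3351 and 2853 open regions. Of the members, 90% lay above 1 over the higher and under 1 over the lower regions. Of the other cells 48 did so, and 40 of these were in cluster 1.

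**Figure D5:**
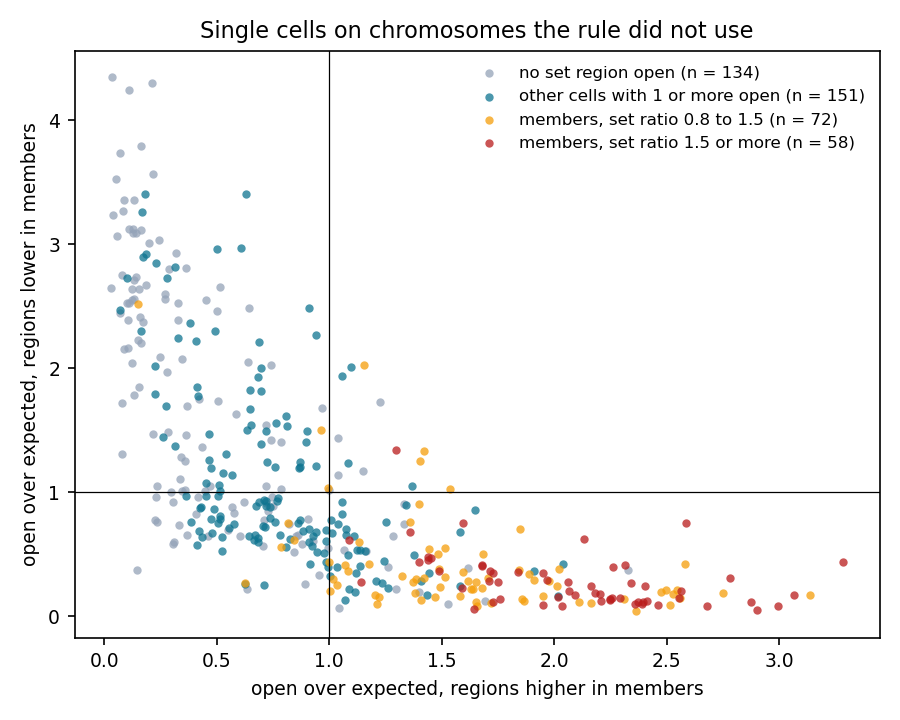
Each point is 1 cell, with open over expected regions among the 589 that were higher in members on the horizontal axis and among the 720 that were lower on the vertical axis, both without unit. Members with a marker ratio of at least 1.5 (red) have a median of 2.11 on the horizontal axis, those from 0.8 to 1.5 (orange) 1.53, and cells without an open marker region (grey) 0.352, and their ranges overlap.

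The 14 members outside cluster 1 had lower values over the higher regions than those inside. The members that chose these regions were 89.2% in cluster 1, so lower values outside it, and intermediate ones in other cells inside it, follow from the choice. The 6 in cluster 3 had a median of 2.5 open marker regions and medians of 1.22 over the higher and 1.42 over the lower regions, and the 8 in cluster 2 had 3.5, 1.08 and 0.498. Members in cluster 1 had 5, 1.85 and 0.230. Conversely, the 85 other cells of cluster 1 had medians of 1.04 and 0.565, between members and the other cells of clusters 2 (0.667 and 0.825) and 3 (0.221 and 2.51).

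Members open at the Lhx1 interval and members closed there had overlapping values on the other chromosomes. The 78 open and 52 closed members had medians of 1.86 and 1.62 over the higher regions, with quartiles of 1.49 to 2.24 and 1.35 to 2.32, and of 0.259 and 0.276 over the lower ones. All members together had chosen these regions, so high and low values in both sets follow from the choice. Compared region by region on the 14 chromosomes, 9 of 16033 (0.0561%) were at least 2-fold higher and 7 (0.0437%) at least 2-fold lower with separate intervals. With 78 and 52 cells, such low counts cannot show that both sets are alike. The open members were deeper, with a median of 4676 open regions against 3211.5. They held a median of 5 open marker regions, those of the Lhx1 interval included, against 3. In the 52 other cells open at the Lhx1 interval the medians were 0.777 over the higher and 0.699 over the lower regions.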

How the data were processed

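The authors deposited 1 table with a whole number for each of 23180 regions in each of 415 cells (130 members and 285 others), and it was read as signal. Of the values above 0, 37.6% equal 148 and 4.44% equal 74, which is the pattern of bases of paired 74-base reads. The deposited signal was divided by 148 to give fragments, and a region was open when its value was above 0. The submitters' processing notes name MACS2 and mm9; for the aligner, duplicate treatment and region selection, nothing is stated in these sources. No doublet caller was run, and 0 pairs of cells were identical.

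Expected shares came from 1 − exp(−region rate × cell rate), fitted to the totals of both regions and cells. A depth-scaled ratio is observed over expected in members divided by the same in other cells. For a share of 0 in members, the upper limit of the exact interval is given. Clusters used term frequency and inverse document frequency weights, singular value components 2 to 10 and k-means with 3 clusters and 50 starts (Python 3.11.15, numpy 2.4.6, scipy 1.17.1, scikit-learn 1.9.0). Intervals are Clopper-Pearson at 95%. Named regions are all marker regions and the 10 highest and 10 lowest ratios among regions with separate intervals; nearby regions and chains were chosen after their values were seen. The members, marker regions and lists were chosen with earlier results of these data known. Lists of marker genes had been planned, need an annotation on mm9, and were not run.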

Additional observations from a re-analysis of the deposited data

How the results depend on the processing

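Of the 10 named higher regions, 9 had a ratio above 1 when more than 1 read pair was required. The alternatives share cells with the comparison that chose the 20 named regions, so their direction under the others is not given as a sign of stability. The members numbered 58 with a ratio of at least 1.5 and 56 when more than 1 read pair was required, and stayed within 1.5 times of 130 under the other rules, including each interval left out in turn. The counts of regions at least 2-fold higher and lower were 903 and 1595. They became 2161 and 3457 when more than 1 read pair was required, 1684 and 2639 with cells thinned to 1500 open regions (12 members and 21 other cells were too shallow), 2098 and 2775 at 1.5-fold, 589 and 720 with separate intervals and 426 and 650 among regions open in at least 10% of cells. In the cells of lower title numbers 1473 were higher. Apart from the fold, interval and frequency settings, which change the counts by construction, the cause was not tested. In the remaining alternatives, including observed shares, deeper cells only and, added after seeing the data, other cells outside cluster 1, the counts stayed within 1.5 times. The cluster with the most members held 89.2% of them and 48.9% of all cells. These shares were 94.6% and 73.3% with 2 clusters, 67.7% and 28.2% with 4, and 53.1% and 38.8% with the first component kept. Gene lists were not run. No paired analysis was possible because there is 1 group.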

Other observations

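Members made up a larger share of the cells with higher title numbers. The labels do not say what these numbers stand for. With all cells split only into lower and higher title numbers, members were again the smaller share among the lower. No interval was computed for that split. Exact intervals of the 4 smaller sets below overlap, which does not show that their shares are alike. In 4 sets of consecutive numbers, members made up 23.1% (interval 15.4% to 32.4%), 25.96% (17.9% to 35.5%), 36.5% (27.3% to 46.6%) and 39.8% (30.3% to 49.9%), from the lowest numbers to the highest. Median depth in these sets was 3679, 3869, 4189.5 and 3785 open regions. Over the regions higher in members, the median of open to expected was 1.71, 1.87, 1.80 and 1.71 in members and 0.414, 0.514, 0.719 and 0.722 in the other cells. Members of all 4 sets helped to choose these regions, so their high values follow from the choice. The share of all cells in cluster 1, as made on the marker chromosomes, was 35.6%, 41.3%, 57.7% and 59.2% over the 4 sets, with no interval computed. Members and other cells were not matched for title number in the main comparison.

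The amount of signal within open regions had overlapping quartiles in both sets of cells. The 14 regions of very high signal, defined by a median of 2.5 fragments or more where open, held a median of 5.58% of a member's signal (quartiles 3.79% and 9.79%) and 5.24% of another cell's (3.60% and 8.46%). Open regions on the 14 chromosomes outside the rule held a median of 1.12 fragments each in members and 1.11 in the other cells.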
